A study of Mus musculus with 6 samples.

Results

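The hypoxia-inducible factors (HIF) and the genes that control or report on them were followed in CD41+ cells of wild-type (WT) and Txnip knockout (KO) mice. The 10 genes were taken by symbol from the deposited table of 24410 genes: the oxygen-regulated subunits Hif1a and Epas1, their partner Arnt, the regulators Vhl, Egln1, Egln2, Egln3 and Hif1an, and the HIF-induced genes Bnip3 and Ddit4. All 10 were in the table. The study sequenced RNA from 6 libraries, WT 1 to WT 3 and KO 1 to KO 3, to learn what loss of Txnip changes in the megakaryocyte lineage. All mice were 5 months old and of the C57BL/6 strain; the KO mice carried Txnip-/- and the WT mice no other named allele. Both groups had the same culture: lineage-negative marrow cells grew for 3 days in medium with stem cell factor (Scf) among its supplements before sorting for CD41, the integrin subunit on megakaryocytes and their precursors. The labels name no Cre or promoter, and do not say whether animals were pooled or whether libraries of a group come from separate mice, so the p-values speak of the spread of these 6 libraries, part of which may be technical. The oxygen level of the culture is not given in the sources used here.

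In cells with enough oxygen, the prolyl hydroxylases Egln1, Egln2 and Egln3 modify HIF alpha subunits, the ubiquitin ligase subunit Vhl binds the modified protein, and the proteasome destroys it. Hif1an, an asparaginyl hydroxylase, blocks the binding of coactivators to the alpha subunit. When oxygen falls the alpha subunit accumulates, pairs with Arnt and binds DNA at a short core motif beside genes of glycolysis, mitophagy and growth control. This control acts on the protein, which was not measured here, so transcript levels of Hif1a do not report its activity.

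The targeted gene followed the labels. Txnip was at 112, 228 and 143 FPKM (fragments per kilobase of transcript, scaled to the mapped total) in WT libraries 1, 2 and 3, the order in which values are given throughout. In KO it read 0, 0.04 and 0. FPKM sums ranged from 715205 to 1131641, and Rpph1 and Rmrp, short noncoding RNAs, took between 10.7% and 30.4% of them. The highest sum and the highest share were both in WT 2. The Y-linked Ddx3y was found in libraries 1 and 2 of both genotypes and Xist in library 3 of both, and libraries of a shared number deviated together, so WT and KO libraries of a number are called a pair. The table states no depth. With a fragment length of 200 bases, the best fit of those tried, values spaced by single fragments gave about 14500000 fragments in KO 1 and 25950000 in KO 3. The WT libraries gave between 19200000 and 19750000, and KO 2 gave no clear estimate. Lengths from 0 to 250 bases gave 12100000 to 15500000 in KO 1, 15850000 to 21800000 in WT and 20350000 to 28600000 in KO 3. Megakaryocyte markers were present, with Pf4 between 465 and 1545 FPKM, while Tubb1, the beta-tubulin of mature platelets, lay between 0.17 and 1.47. Markers of other lineages were present too. Summed FPKM was 2737 to 6671 for 8 neutrophil markers and 562 to 1453 for 8 mast cell markers, beside 647 to 1868 for 10 megakaryocyte markers. The values below are of the bulk sample, and which cells carried them was not tested.

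Hif1a was the main alpha subunit transcript in these cells. Its level was 33.0, 28.7 and 28.7 FPKM in WT and 28.0, 25.1 and 34.4 in KO. The groups overlapped, with the lowest and the highest library both KO. Epas1, the alpha subunit best known from endothelium and from the cells that make erythropoietin, was at 0.05, 0.02 and 0.07 FPKM in WT and at 0.08, 0.28 and 0 in KO. It stayed under the minimum of 1 FPKM in 3 libraries needed for a test, so 9 of the 10 genes were tested. FPKM values are per length, so the levels of the subunits can be set side by side: Hif1a made up 99.8% ± 0.087 (SD, n = 3) of their sum in WT and 99.5% ± 0.57 (n = 3) in KO, with a two-sided exact permutation p of 0.6 for the difference. In bulk samples such a level cannot separate fewer cells of a type from less RNA per cell. Cdh5, a defining endothelial marker, was between 0 and 0.04 FPKM.

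Arnt, the constitutive partner of the alpha subunits, was lower and more uneven than Hif1a. It was at 14.2, 9.03 and 8.32 FPKM in WT and at 16.0, 8.50 and 9.76 in KO. The 2 libraries numbered 1 were the highest of their genotype, and the remaining 4 lay close together whatever their genotype.

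Of the prolyl hydroxylases, Egln3 was by far the most abundant. It was at 113, 122 and 118 FPKM in WT and at 113, 125 and 145 in KO. Egln3, itself a HIF-induced gene, ranked between percentile 93.7 and 95.2 of the tested genes in every library. Egln1, the main enzyme setting HIF1A protein in most tissues, was at 21.9, 22.0 and 24.3 FPKM in WT and at 23.8, 29.1 and 28.4 in KO. KO 1 lay below WT 3, so the groups overlapped, but KO was higher in 3 of 3 pairs. Egln2 was at 21.9, 15.4 and 22.9 FPKM in WT and at 22.9, 20.2 and 18.9 in KO, with no common direction over the pairs.

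The balance among the prolyl hydroxylases was compared as shares of their summed FPKM, which library scaling cannot move. Egln1 took 14.0%, 13.8% and 14.7% in WT and 14.9%, 16.7% and 14.7% in KO, so every KO library lay above every WT library, though the lowest KO and the highest WT share both rounded to 14.7%. The mean share was 14.2% ± 0.50 (SD, n = 3) in WT and 15.4% ± 1.07 (n = 3) in KO, a difference of 1.29 percentage points (0.677 without KO 2 and 1.64 without KO 3). Its two-sided exact permutation p was 0.1, the smallest that 3 against 3 allows, and 0.4 after adjustment over the 4 shares tested; flipping the signs of the 3 pairs gave an exact p of 0.25, also the smallest possible. Egln3 took 73.4% ± 2.80 in WT and 72.7% ± 2.48 in KO (n = 3 each; exact permutation p = 0.6, adjusted p = 0.8). Egln2 took 12.5% ± 2.46 and 11.9% ± 2.29 (n = 3 each; exact permutation p = 1.0). None of the shares passed its test.

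Vhl and Hif1an, the other arms of oxygen control, were expressed at modest levels. Vhl was at 12.6, 18.6 and 16.3 FPKM in WT and at 14.1, 22.9 and 15.0 in KO, lowest in number 1 and highest in number 2 of both genotypes. Hif1an was at 8.80, 5.42 and 6.85 FPKM in WT and at 9.90, 5.25 and 7.28 in KO, the reverse order: highest in number 1 and lowest in number 2 of both genotypes.

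Bnip3 and Ddit4 differed most among libraries. Bnip3, a mitochondrial outer membrane protein that marks mitochondria for removal, was at 96.9, 614 and 269 FPKM in WT and at 96.1, 474 and 351 in KO. The highest library was 6.39 times the lowest, yet WT 1 and KO 1 were almost equal, and KO lay below WT in pair 2 and above it in pair 3. The FPKM sum was 1131641 in WT 2 and 805730 in KO 2, so the direction in pair 2 depends on the scaling. Ddit4, also called Redd1, an inhibitor of the growth kinase complex mTORC1, was at 24.1, 13.2 and 12.7 FPKM in WT and at 28.7, 14.5 and 13.1 in KO. Its libraries numbered 1 lay above the other 4, the opposite of Bnip3, and KO was higher in 3 of 3 pairs. The plot of FPKM by library shows these orders for the 10 genes.

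**Figure D1:**
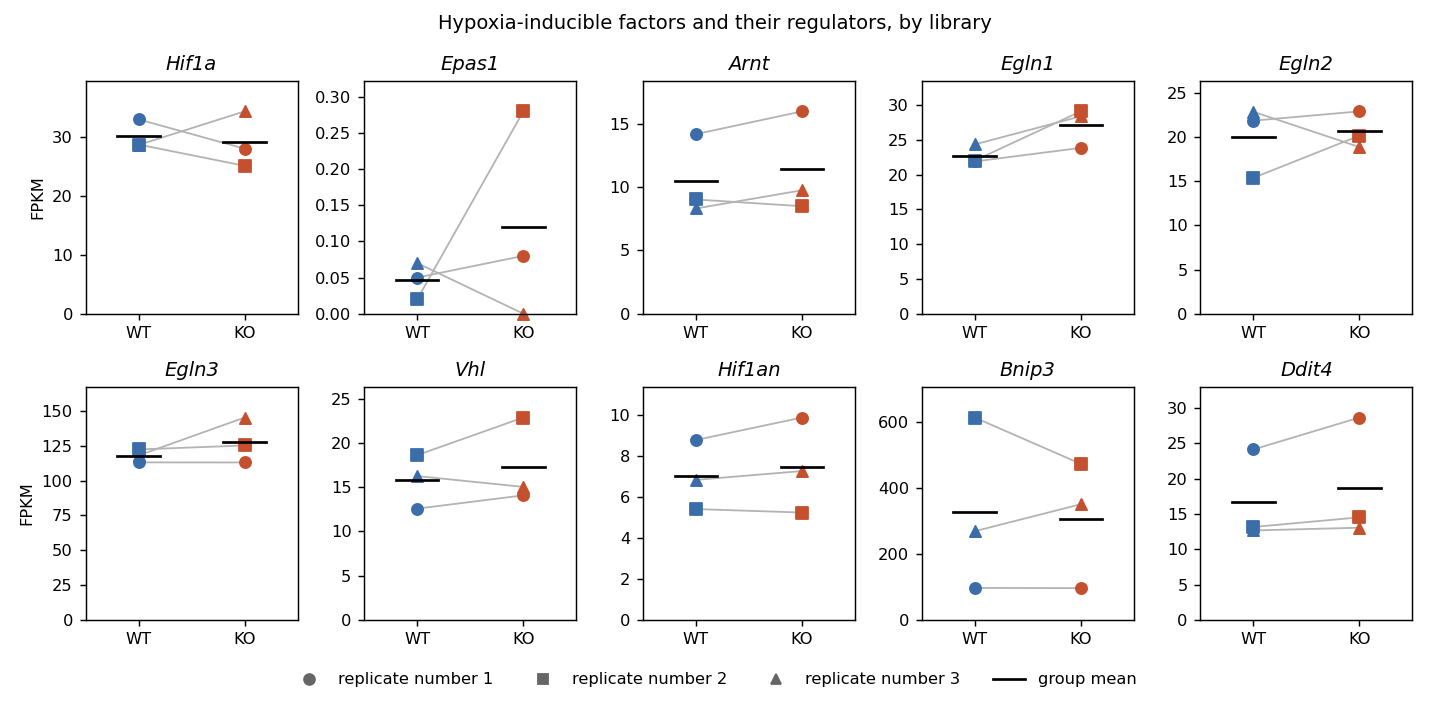
FPKM of the 10 genes in each library, WT 1 to WT 3 and KO 1 to KO 3, one panel per gene with its own vertical axis from 0; points are single libraries with a shape for each replicate number, grey lines join the pairs and black bars are group means. Bnip3 runs from 96.1 to 614 FPKM and is lowest in number 1 of both genotypes, and Epas1 does not pass 0.28.

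In order of the median over the 6 libraries, the levels were Bnip3 at 310 FPKM, Egln3 at 120, Hif1a at 28.7, Egln1 at 24.1, Egln2 at 21.0, Vhl at 15.6, Ddit4 at 13.8, Arnt at 9.39, Hif1an at 7.06 and Epas1 at 0.06. Ranges over the libraries did not overlap for 2 pairs of neighbours in this order: Egln3 with Hif1a, and Hif1an with Epas1. Bnip3 lay below Egln3 in 2 of the 6 libraries, those numbered 1. The neighbours from Hif1a down to Hif1an overlapped.

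The promoters of the HIF-induced genes show where the factor could bind, so 3 are printed: Bnip3 and Ddit4, whose levels moved most and in opposite ways, and Egln3, which was high and even. Each is the 250 bases before the gene's start, 5′ to 3′ on the gene's strand, from RefSeq on GRCm38.p6; capitals mark the HIF core motif, ACGTG or GCGTG on either strand. Matches may overlap each other, and CACGTG reads as ACGTG on both strands.
Bnip3, chr7:138909507-138909756, minus strand: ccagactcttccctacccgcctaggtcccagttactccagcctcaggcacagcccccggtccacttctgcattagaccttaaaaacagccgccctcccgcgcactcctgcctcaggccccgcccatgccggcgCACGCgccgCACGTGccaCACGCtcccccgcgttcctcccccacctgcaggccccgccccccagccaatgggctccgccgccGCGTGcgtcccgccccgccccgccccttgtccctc
Egln3, chr12:54203875-54204124, minus strand: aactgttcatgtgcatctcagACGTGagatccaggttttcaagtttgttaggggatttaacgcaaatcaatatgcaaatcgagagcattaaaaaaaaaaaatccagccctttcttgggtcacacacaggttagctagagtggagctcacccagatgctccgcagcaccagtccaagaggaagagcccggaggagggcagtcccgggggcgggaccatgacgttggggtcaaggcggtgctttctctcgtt
Ddit4, chr10:59951771-59952020, minus strand: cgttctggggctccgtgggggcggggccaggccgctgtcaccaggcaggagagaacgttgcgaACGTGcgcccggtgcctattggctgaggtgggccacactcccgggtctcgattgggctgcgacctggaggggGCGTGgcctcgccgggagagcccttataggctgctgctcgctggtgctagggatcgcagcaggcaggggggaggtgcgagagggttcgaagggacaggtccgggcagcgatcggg
Bnip3 held 5 matches, 2 of them the palindrome CACGTG read on both strands, between 117 and 31 bases before the start. Ddit4 held 2 and Egln3 held 1, which begins 229 bases before its start. RefSeq promoters were matched for 9 of the 10 genes; 7 of these (77.8%) held the motif, and Vhl and Hif1an held none in this window. The motif is common. Counted by gene, as for the 7 of 9, it was found for 62.0% of the 8628 tested genes with a promoter. Counted by single promoter, it was in 38.6% of all 32851 promoters of this length, and CACGTG was in 6.02% of them. A match describes letters and is not evidence of binding, and Ddit4 and Bnip3 both held it while their levels ran in opposite order.

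Between genotypes, none of the 9 tested genes passed the test. In limma on log2(FPKM + 1), all had an adjusted p of 1.00, and 0 of 9 reached an unadjusted p under 0.05, against 76 of all 11249 tested genes. Of all tested genes, 1 was called higher in KO (0.00889%) and 1 lower (0.00889%), the latter Txnip. In the fit with the replicate number as a block, too, 0 of the 9 were called and 0 had an unadjusted p under 0.05, against 780 of all tested genes. Groups did not overlap for 0 of the 9 genes, against 3.32% of tested genes with KO higher and 1.03% with KO lower.

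Differences (KO minus WT on the log2(FPKM + 1) scale, with 95% intervals from limma) bound how far each gene could have moved. Egln1 had the largest difference, 0.24 (SE 0.20, interval −0.20 to 0.68). Ddit4 followed at 0.14 (SE 0.36, −0.67 to 0.95), then Egln3 at 0.11 (SE 0.19, −0.33 to 0.55), Vhl at 0.11 (SE 0.26, −0.48 to 0.70) and Arnt at 0.10 (SE 0.30, −0.60 to 0.79). Hif1an was at 0.06 (SE 0.29, −0.59 to 0.72), Egln2 at 0.06 (SE 0.23, −0.46 to 0.57) and Hif1a at −0.05 (SE 0.21, −0.52 to 0.41). These intervals hold changes of either sign for every gene, so none was shown to differ or to be equal. Bnip3 had the widest interval, −1.66 to 1.66 around a difference of −0.0011, with the libraries of a genotype far apart. With the number as a block that interval narrowed to −0.38 to 0.38, and for Ddit4 to −0.18 to 0.46. In all, 7 of the 9 values were higher in KO and 2 lower, with a median of 0.10 that turned to −0.017 without KO 1 and fell to 0.015 without WT 2, beside 7131 of 11249 tested genes higher and an all-gene median of 0.06. Setting every library to a common FPKM sum moved the all-gene median to 0.22 and that of the 9 genes to 0.26, and put Hif1a and Bnip3 among the higher values.

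**Figure D2:**
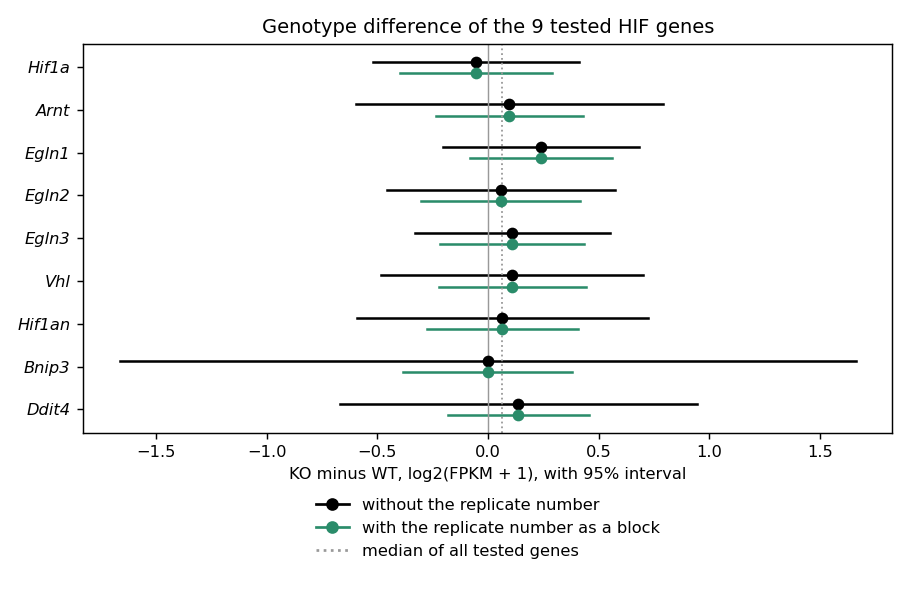
KO minus WT on the log2(FPKM + 1) scale for the 9 tested genes, as points with 95% intervals from limma, without (black) and with (green) the replicate number as a block; the dotted line is the all-gene median of 0.06. Every interval spans 0, and that of Bnip3 is −1.66 to 1.66 without the block and −0.38 to 0.38 with it.

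Bnip3, Hif1an, Ddit4, Arnt and Vhl varied mostly with the replicate number. For Bnip3, 97.8% of the sum of squares on the log2(FPKM + 1) scale lay between the numbers, for Hif1an 97.0%, for Ddit4 96.8%, for Arnt 94.6% and for Vhl 86.5%; the median over all tested genes was 73.5%. The number takes 2 of the 5 degrees of freedom and the genotype 1. Egln1 was the only one of the 9 in which the genotype took more (59.3%) than the number (27.9%). An F test of the number in the blocked limma fit, added after these values were seen, called 4 of the 9 genes: Bnip3 (adjusted p = 0.000735), Ddit4 (0.00448), Arnt (0.0190) and Hif1an (0.0380). The same test called 35.1% of all tested genes, so 4 of 9 (44.4%) is near the background.

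The direction of these patterns was checked under 4 scalings: as deposited, quantile normalization, a common FPKM sum, and a common sum without Rpph1 and Rmrp. Bnip3 was lowest in number 1 and highest in number 2, and Arnt, Hif1an and Ddit4 were highest in number 1, under all 4. Being highest in number 1 was common. Of all called genes it held for 2468 of 3952, 1570 of 3433, 3828 of 4769 and 4413 of 5531, in that order. The calls for Bnip3 and Ddit4 held under all 4, whereas quantile normalization lost Arnt (adjusted p = 0.0887) and Hif1an (0.261) and called Vhl (0.0193), and the common sum without Rpph1 and Rmrp also called Egln2 (0.0440). Without pair 1 the test called 0 of the 9 genes and 698 genes in all, with Bnip3 at an adjusted p of 0.0507, Ddit4 at 0.872 and Arnt at 0.957. Without pair 2 Hif1an was lost (0.105), and without pair 3 Vhl was called (0.0200). What a number stands for is not given in the labels.

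**Figure D3:**
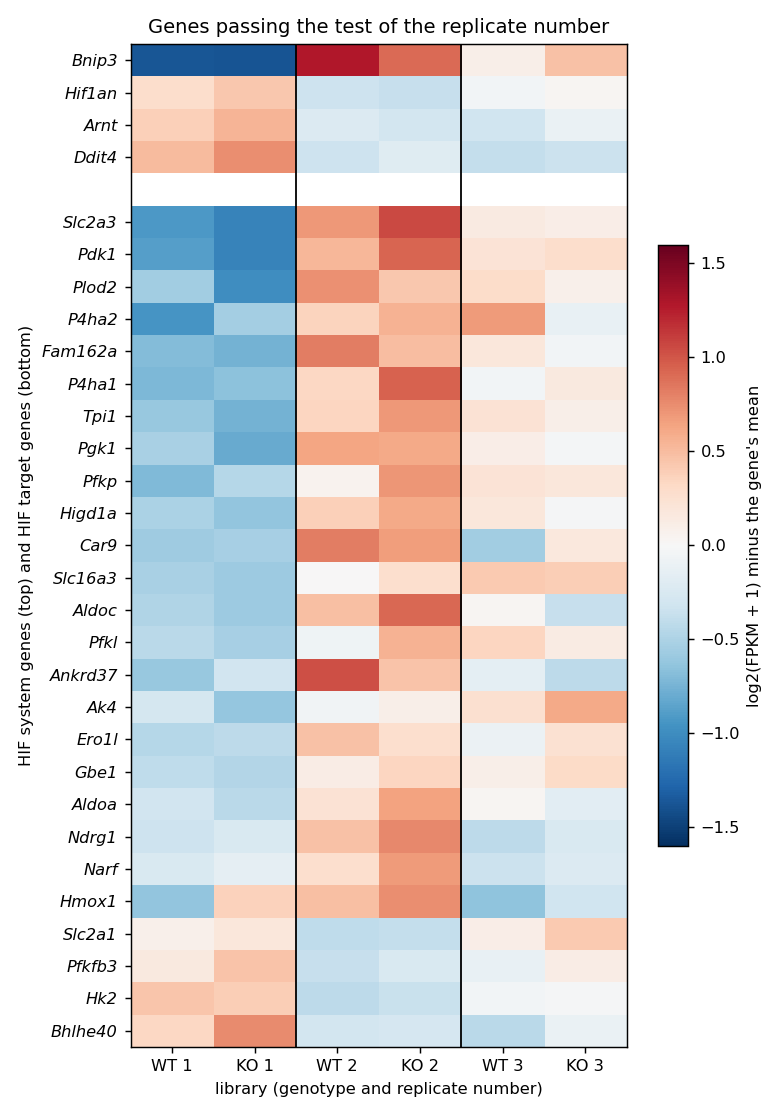
Deviation of each library from the gene's mean over the 6 libraries, on the log2(FPKM + 1) scale, as a colour for the 4 HIF genes (top) and 26 HIF target genes (bottom) that passed the test of the number, with libraries along the horizontal axis. Bnip3 and 19 of the targets are lowest on average in both libraries numbered 1, and Arnt, Hif1an and Ddit4 are high there.

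Other known HIF targets were read from a list of 53 genes, of which 48 were tested and 5 were too low. Between genotypes the KO value was higher for 34 and lower for 14, beside 63.4% of all tested genes higher. The median difference was 0.08 (−0.064 without KO 2, −0.038 without WT 1, 0.23 without KO 1), beside an all-gene median of 0.06. By limma 0 were called, with 1 at an unadjusted p under 0.05. That gene was Vegfa, the vascular endothelial growth factor, at 23.1, 31.2 and 30.8 FPKM in WT and at 41.2, 44.2 and 39.0 in KO, a difference of 0.54 with an unadjusted limma p of 0.027 and an adjusted p of 1.00. Every KO library exceeded every WT library for Vegfa and for Ankzf1, and for no other of the 48, near the 3.32% of all tested genes. Next in unadjusted p were Tfrc, the transferrin receptor (−0.42), Hmox1, heme oxygenase (0.53), and Kdm4c, a histone demethylase (0.31), none of which passed. With the block Vegfa, Hmox1 and Tfrc had an unadjusted limma p under 0.05, and none was called. The glycolytic enzymes of highest level, Gapdh, Aldoa, Pgk1 and Ldha, differed by −0.09, 0.02, −0.15 and −0.07, also without a call.

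Against the replicate number, 26 of the 48 targets (54.2%) were called, beside the 35.1% of all tested genes. Of these 26, 19 were lowest in number 1 and 20 highest in number 2, the order that Bnip3 had; of all called genes, 28.5% were lowest in number 1. Pgk1, a glycolytic kinase, was at 1044, 2327 and 1616 FPKM in WT and at 860, 2286 and 1473 in KO (limma adjusted p of the number 0.00338). The next genes were chosen after their values were seen, from those in this order under all 4 scalings. The glucose transporter Slc2a3 averaged 49.3, 184 and 108 FPKM over the 2 libraries of numbers 1, 2 and 3, the pyruvate dehydrogenase kinase Pdk1 36.8, 123 and 87.0, and the collagen prolyl hydroxylase subunit P4ha1 34.9, 91.2 and 59.2. The mitochondrial protein Fam162a averaged 83.5, 220 and 146, and the collagen lysyl hydroxylase Plod2 5.56, 15.7 and 11.7. In 3 called targets the order began the other way: the hexokinase Hk2, the glycolytic regulator Pfkfb3 and the repressor Bhlhe40 were highest in number 1 under all 4 scalings, as was Ddit4. Other called targets departed from it too. Slc2a1 was lowest in number 2 and highest in number 3 under all 4 scalings, and Ndrg1, Narf and Hmox1 were lowest in number 3.

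Scaling changed the count, but less so the share of called targets lowest in number 1. With a common FPKM sum 17 of the 48 targets (35.4%) were called against 42.4% of all genes, and without Rpph1 and Rmrp in that sum 23 (47.9%) against 49.2%, so the share of targets called was no longer above the background; with quantile normalization it was 28 of 48 against 30.5%. Of the targets called, 73.1%, 75.0%, 70.6% and 65.2% were lowest in number 1 as deposited, with quantiles, with the common sum and with the common sum without Rpph1 and Rmrp, beside 28.5%, 45.6%, 7.40% and 10.4% of all called genes. Highest in number 2, in the same order of scalings, were 20 of 26, 18 of 28, 9 of 17 and 14 of 23 called targets. Among all called genes these counts were 1181 of 3952, 1506 of 3433, 268 of 4769 and 520 of 5531. Of the 26, 18 were lowest in number 1 under all 4 scalings, and 10 were also highest in number 2. Without pair 1, 6 of the 48 were called.

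Cell markers and transcript length moved with the same numbers. Summed FPKM of 10 megakaryocyte markers was between 647 and 679 in number 1, between 1770 and 1868 in number 2 and between 1021 and 1381 in number 3, the order of Bnip3, but Pf4 made up most of each sum and the markers did not all move alike. The number was called for 6 of the 10, beside 35.1% of all tested genes. Of the 6, Pf4, Ppbp, Gp9 and Vwf were lowest in number 1 (Vwf highest in number 3). Itgb3 and Gp1ba were highest in number 1. None of the markers was at 0 in every library. The part of these shifts in the Bnip3 and target values was not tested. By genotype the marker sums overlapped, at 647 to 1770 in WT and 679 to 1868 in KO. Endothelial markers summed to 69.3 to 106 FPKM in that same order, nearly all of it Pecam1, which platelets also carry; 4 of the 8 were tested, and Cdh5 was at 0 in 4 libraries. Sums for monocytes (453 to 828), neutrophils (2737 to 6671), mast cells (562 to 1453) and erythroid cells (26.0 to 72.4) did not follow that order in both genotypes. Stromal markers summed to at most 1.12 FPKM, with 0 of 8 tested. Calls for the number were not particular to megakaryocyte markers. They took in 5 of 10 monocyte, 5 of 8 neutrophil, 4 of 8 mast cell, 3 of 6 erythroid and 1 of 4 endothelial markers tested. The called monocyte markers were lowest in number 2, the neutrophil ones highest in number 3 and the mast cell ones highest in number 1. The called erythroid markers were highest in number 2 and lowest in number 3. Across 10807 tested genes with a known transcript length, genes with long transcripts lay higher in number 1 and lower in number 2 (Spearman correlations of the deviation with length 0.35 and −0.34; genes of a library are not independent replicates). The longest transcripts of Bnip3, Ddit4, Arnt and Hif1an have 1756, 1755, 4325 and 6194 bases. Whether length has a part in the values of any of these genes was not tested.

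The genes whose pattern over the 6 libraries was nearest to Bnip3, by root mean square distance of centred log2(FPKM + 1) values, were Prelid2 (0.18), Treml1 (0.23) and Ppbp (0.27). Treml1, a receptor of platelet granules, was at 4.29, 23.2 and 14.9 FPKM in WT and at 4.65, 22.9 and 13.5 in KO. Ppbp, the platelet basic protein and itself among the megakaryocyte markers, was at 24.7, 151 and 66.9 in WT and at 33.6, 101 and 68.8 in KO. Both were lowest in number 1 and highest in number 2 of each genotype, as Bnip3 was. Nearest to Ddit4 were Rbm4b (0.03), Rap2b (0.06) and Etv3 (0.07), all highest in number 1 of both genotypes. The likeness was computed for Bnip3 and Ddit4, the tested HIF genes whose values spanned more than 1 on this scale.

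**Figure D4:**
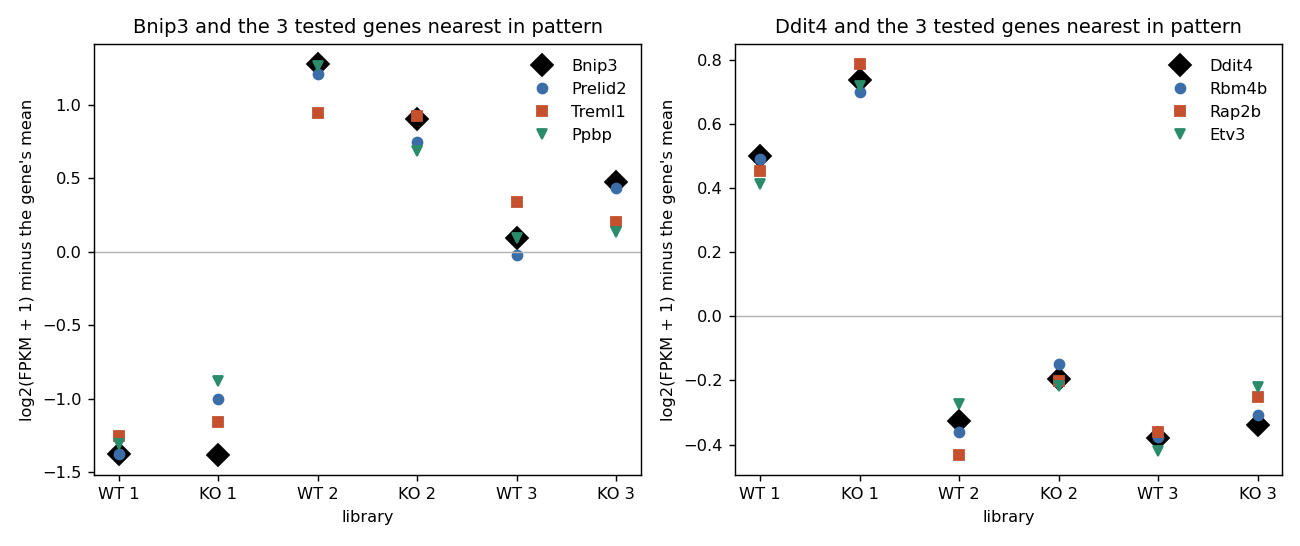
Centred log2(FPKM + 1) values of Bnip3 and Ddit4 and of the 3 tested genes nearest to each, by library. The points of Prelid2, Treml1 and Ppbp lie within a root mean square distance of 0.27 of Bnip3, and those of Rbm4b, Rap2b and Etv3 within 0.07 of Ddit4.

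The cofactors and degradation machinery of HIF were read from a list of 23 genes. Hif3a and Arnt2, relatives of the subunits, were under the minimum, at up to 0.97 and 0.07 FPKM, and 21 were tested. The KO value was higher for 11 and lower for 10, the median difference was 0.01 (−0.037 without WT 2, −0.031 without WT 3), and 0 were called by limma, with 0 at an unadjusted p under 0.05. With the block 3 had an unadjusted p under 0.05, Tceb1, Tceb2 and Nedd8, all with lower values in KO and none called (adjusted p 0.690 to 0.717). Tceb1 and Tceb2, the elongins C and B that join Vhl to its ubiquitin ligase, were among the 4 of smallest p, with differences of −0.53 and −0.35, as were Nedd8, the activator of that ligase (−0.34), and Siah2, a ligase that targets Egln proteins (0.25). Tceb1 was at 56.0, 79.2 and 41.7 FPKM in WT and at 46.6, 29.8 and 42.9 in KO, so the groups overlapped. The genes of highest level were Gnb2l1, Pkm, Hsp90ab1 and Hsp90aa1, whose products have been described to bind HIF1A, and they differed by −0.05, 0.02, −0.06 and −0.26. The number was called for 8 of the 21 (38.1%), near the 35.1% of all genes. In these 8 the ligase subunits Tceb2 and Rbx1 were lowest in number 1, and the coactivators Ep300 and Crebbp were highest there, in the same place under all 4 scalings. The calls of Ep300 and Crebbp held under all 4. Tceb2 lost its call with quantile normalization (limma adjusted p = 0.0632), the common sum (0.391) and the common sum without Rpph1 and Rmrp (0.119). Rbx1 lost its call under both common sums (0.624 and 0.313).

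Ddit4 is induced by glucocorticoids and by amino acid stress as well as by HIF, so lists of those genes were read beside it. Of 11 tested glucocorticoid-induced genes, the KO value was higher for 10 and lower for 1, the median difference was 0.21 (0.082 without WT 2, 0.35 without WT 1, 0.38 with a common sum), and 0 were called, with 0 at an unadjusted limma p under 0.05. Beside this list and the next, 63.4% of all tested genes were higher in KO, with a median of 0.06 (0.22 with a common sum). Sgk1, a kinase, was at 6.44, 6.78 and 4.01 FPKM in WT and at 11.4, 10.8 and 5.41 in KO (difference 0.56). Only Cebpd, 1 of the 11, had groups that did not overlap, with KO higher, beside 3.32% of all tested genes. With the block Sgk1 alone of the 11 had an unadjusted limma p under 0.05, and it was not called (adjusted p = 0.613). The number was called for 5 of the 11 (45.5%, beside 35.1% of all tested genes), of which Per1, Zbtb16, Sgk1 and Dusp1 were highest in number 1 as Ddit4 was (Sgk1 in number 2 with quantile normalization), and Tsc22d3 was lowest there. Of all genes called for the number, 2468 of 3952 were highest in number 1, so 4 of 5 is little more than the background. Of 18 amino acid stress genes, it was higher for 14 and lower for 4, the median difference was 0.15 (−0.037 without WT 1, 0.010 without KO 2, 0.34 without WT 2, 0.50 without KO 1, 0.33 with a common sum), and 0 were called, with 1 at an unadjusted limma p under 0.05. That gene was Cebpb, a transcription factor, at 17.5, 15.8 and 23.7 FPKM in WT and at 29.5, 46.8 and 23.0 in KO. With the block Cebpb, Nupr1 and Trib3 had an unadjusted limma p under 0.05, and none was called. Of these 18, 11 (61.1%, beside 35.1% of all tested genes) were called for the number as deposited. Of the 11, Atf4 (limma adjusted p = 0.0975), Mthfd2 (0.0620) and Sesn2 (0.226) lost the call with a common sum, where 42.4% of all genes were called. Sesn2 (0.0731) and Aldh1l2 (0.0562) lost it with the common sum without Rpph1 and Rmrp, where 49.2% were called. Whether still called or not, 10 of the 11 were lowest in number 1 under all 4 scalings, opposite to Ddit4. Among all genes called under a scaling, 7.40% to 45.6% were lowest there. Asns, asparagine synthetase, was at 48.7, 122 and 99.5 FPKM in WT and at 44.1, 151 and 102 in KO. The regulator Atf4 ran the same way, at 172, 363 and 282 in WT and at 186, 500 and 243 in KO.

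Arnt lies on chromosome 3, as Txnip does, so genes between them were read for changes near the deleted locus. RefSeq on GRCm38 places 99 genes between them, of which 20 were tested. The KO value was higher for 13 and lower for 7, with a median difference of 0.05, and 0 were called by limma with or without the block. Unadjusted p was under 0.05 for 1 of the 20, and for 4 of the 20 with the block, beside 780 of 11249 tested genes. The 4 were Terc, Golph3l, Bola1 and Sf3b4, all with lower values in KO and a blocked adjusted p of 0.683 to 0.717. Terc, the telomerase RNA, was the 1 without the block, at 103, 142 and 68.2 FPKM in WT and at 63.4, 39.7 and 68.2 in KO, a difference of −0.84. Golph3l, a Golgi protein, differed by −0.43 and was the only one of the 20 whose groups did not overlap, beside 1.03% of all tested genes with KO lower. It was at 20.6, 28.7 and 27.9 FPKM in WT and at 16.0, 20.3 and 19.8 in KO. Golph3l, Bola1 and Sf3b4 were lower in 3 of 3 pairs, with Sf3b4 nearly equal in pair 1. The number was called for 7 of the 20 (35.0%), beside 35.1% of all tested genes, and Arnt itself differed by 0.10. Cd1d2, the gene called higher in KO without the block, is not among the 20. Its position on the genome was not read, so its absence from the 20 does not say that it is unlinked to Txnip. Cd1d2 was at 0.1, 0.25 and 0 FPKM in WT and at 7.12, 9.1 and 7.24 in KO. Genes flanking this interval were not read as a set, so the counts speak only of the genes inside it.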

How the data were processed

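The authors deposited FPKM values per gene symbol for 6 libraries. Per the submitters' processing notes, FastQC, Trimmomatic 0.39, STAR 2.7.0a, RSEM 1.2.31 and the mouse build mm9 were used; their roles and settings, the annotation and strand handling were not given in the sources used here. FPKM from RSEM are estimates that share reads between similar transcripts, and they are relative to each library's total, so abundant RNAs lower all others. All 6 columns were used; 0 were left out. A culture supplement and the name of a gene too low to test are not reported here.

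Groups came from sample titles. Genes reaching 1 FPKM in 3 or more libraries (11249) were tested on log2(FPKM + 1) with limma 3.58.1 in R 4.3.3 (lmFit, eBayes with a trend), two-sided, KO against WT, with Benjamini-Hochberg adjustment over all of them and a threshold of 0.05. This scale understates changes of low genes. The script was checked on simulated data. Shares were tested by exact permutation over samples (scipy 1.17.1).

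Deviations from the group mean correlated across genes between the libraries of a number with r = 0.81, 0.59 and 0.38, all above 0.1, so the numbers were taken to pair the samples, and limma was also run with the number as a blocking term. The F test of the number was added after values were seen.

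The 10 genes and all lists were chosen with earlier results of these data known. Named beside them were the 4 genes of smallest p and the 4 of highest level in a list, genes between Arnt and Txnip, and the 3 nearest patterns of a gene spanning more than 1 on the log2 scale; other named genes were chosen after their values were seen. Alternatives were scaling, pseudocount, filter, the block and each library left out. Promoters came from RefSeq on GRCm38.p6, transcript lengths from GENCODE M21. Depth was estimated from the spacing of low FPKM values with those lengths and is approximate, so it gave no interval and no detection limit.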

Additional observations from a re-analysis of the deposited data

How the results depend on the processing

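The 9 tested HIF genes stayed uncalled in all 171 combinations of gene and alternative, with adjusted p from 0.563 to 1.00 by limma; 30 of them changed the sign of a difference. A common FPKM sum turned Hif1a to 0.12 and Bnip3 to 0.18, and quantile normalization turned Bnip3 to 0.15, Egln2 to −0.0043 and Hif1an to −0.022, each the same with and without the replicate block. Leaving out 1 library gave −0.17 to 0.044 for Hif1a, −0.15 to 0.31 for Arnt, −0.097 to 0.23 for Vhl, −0.11 to 0.16 for Egln2, −0.14 to 0.27 for Hif1an, −0.69 to 0.69 for Bnip3 and −0.20 to 0.42 for Ddit4. Leaving out 1 pair in the blocked fit gave −0.21 to 0.033 for Hif1a (0.013 without pair 2), −0.10 to 0.22 for Egln2 and −0.19 to 0.19 for Bnip3 (0.0041 without pair 1). Egln1 (0.17 to 0.33) and Egln3 (0.014 to 0.19) kept their sign there and under every scaling. Leaving out 1 library gave differences in share of −0.54 to 0.013 percentage points for Hif1a, 0.68 to 1.64 for Egln1, −1.99 to 0.48 for Egln2 and −2.12 to 0.89 for Egln3. The replicate block changed no call among the 9 genes and, for all genes, gave 2 higher calls in place of 1, 2 with quantiles, and 54 higher and 12 lower with a common sum. Without the filter 0 genes were higher. Leaving out 1 library gave 0 to 1 higher and 1 to 2 lower calls, and leaving out pair 1, 2 or 3 in the blocked fit 9, 94 or 68 higher and 27, 48 or 50 lower. The higher call, Cd1d2, was lost without KO 3, WT 2 or WT 3. Tests of the number without a pair called 698 to 4848 genes, 0 to 5 of the 9 HIF genes and 6 to 26 of the 48 targets, and 17 targets with a common sum. That sum moved the median of the cofactors to 0.18 and of the targets to 0.25, and leaving out a library gave from −0.064 (without KO 2) to 0.23 (without KO 1) for the targets. Apart from the common sum, whose construction shifts all genes, the causes were not tested. Depth was too uncertain to give a detection limit for Epas1, Hif3a or Arnt2, and groups of 3 cannot be tested for outlying libraries.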
